A study of Rattus norvegicus with 26 samples.

Results

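The comparison described here is that of soleus from wheel-running HCR rats (5 libraries) with soleus from HCR rats kept without a wheel (8 libraries), 13 of the 26 libraries of the series. The members were taken by the group named in each sample's description. HCR rats come from a line bred over many generations for high running capacity, here generation 44, and all animals were aged females. Both groups therefore share the HCR background. The runners were housed in pairs in a cage with a wheel that they could use at will for more than 5 months, so that the distance run by each rat is not known from the labels. The other 13 libraries come from the LCR line, bred for low running capacity (8 sedentary and 5 running), and serve here as a separate set of animals in which the same contrast was measured. Transcripts were read near their 3' ends from RNA primed at the poly(A) tail, and levels below are CPM, the reads of a gene scaled by library size, on a linear scale. Differences between groups are log2 fold changes, running minus sedentary. CPM values compare libraries at 1 gene, and are not compared between genes.

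The soleus is a postural muscle made mostly of slow, oxidative fibres, which burn fat and glucose in mitochondria and carry the slow myosin heavy chain encoded by Myh7. Contraction raises calcium, which acts through the phosphatase calcineurin, and adrenaline raises cyclic AMP, which acts through protein kinase A. Both pathways are held in check by enzymes and inhibitors whose transcripts can themselves change with use. Endurance training is known in general for raising oxidative enzymes and for shifting fast fibre types toward more oxidative ones.

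The libraries held the markers of a slow muscle. Myh7 ran from 9596 to 12977 CPM in the runners and from 6596 to 14106 CPM in the sedentary rats. The T cell markers Cd3e and Cd8a had a median of 0 CPM in both groups. Of the 11 T and B cell markers listed, 2 were abundant enough to be tested. These were Cd4 (median 6.38 CPM in runners and 5.92 CPM in sedentary rats) and Ptprc (10.6 and 13.6 CPM). Mean depth was 1.49 ± 0.321 M counts (SD, n = 5) in runners against 1.85 ± 0.351 M (n = 8), a difference of -0.355 M (exact 2-sided permutation p = 0.0971, of which the smallest possible value is 0.000777). Genes with at least 1 count numbered 14930 ± 845 against 15714 ± 677 (exact permutation p = 0.0909), a difference of -783 that was -312 with libraries thinned to the smallest total (exact permutation p = 0.207), and mitochondrially encoded mRNAs took 3.31% ± 0.196 against 3.45% ± 0.325 of counts (exact permutation p = 0.406).

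The line label was checked on the 73 genes that differed at least 2-fold between the sedentary lines (edgeR, adjusted p at most 0.05). That contrast compares sedentary libraries only. Runners did enter the gene filter, the scaling and the estimate of spread of the fit, so the choice of genes is not fully independent of them. HCR running 5, whose title names the other line, lay nearer to the sedentary HCR mean at 56 of the 73 genes (76.7%). HCR running 1, 2 and 3 lay nearer to it at 76.7%, 74.0% and 76.7%, and the 5 LCR runners at 16.4% to 21.9%, so that HCR running 5 sits with the HCR runners and its genotype label was kept. HCR running 4 lay nearer to it at 48 of 73 genes (65.8%), the lowest share of the 5 HCR runners. The genes were chosen by the values of the sedentary libraries, which favours high shares there. Shares of runners are therefore not compared with those of sedentary libraries.

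HCR running 4 carried counts like the LCR line at some of these genes, which were chosen after their values were seen. Prmt1, a protein arginine methyltransferase, stood at 76.2 CPM in it, at 0.0 to 5.19 CPM in the other 4 runners, at 1.98 to 4.23 CPM in sedentary HCR and at 5.76 to 134 CPM in sedentary LCR. LOC102555790 had 0.0 CPM in it and 4.26 to 18.4 CPM in the other runners, and Acad11, an acyl-CoA dehydrogenase, 5.80 CPM against 14.5 to 18.4 CPM. At RGD1560124 it stood at 0.0 CPM, as low as sedentary HCR (0.0 to 0.66 CPM) and unlike sedentary LCR (5.03 to 22 CPM). What sets this library apart was not tested, and the counts of calls and the called genes are given with and without it.

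**Figure D1:**
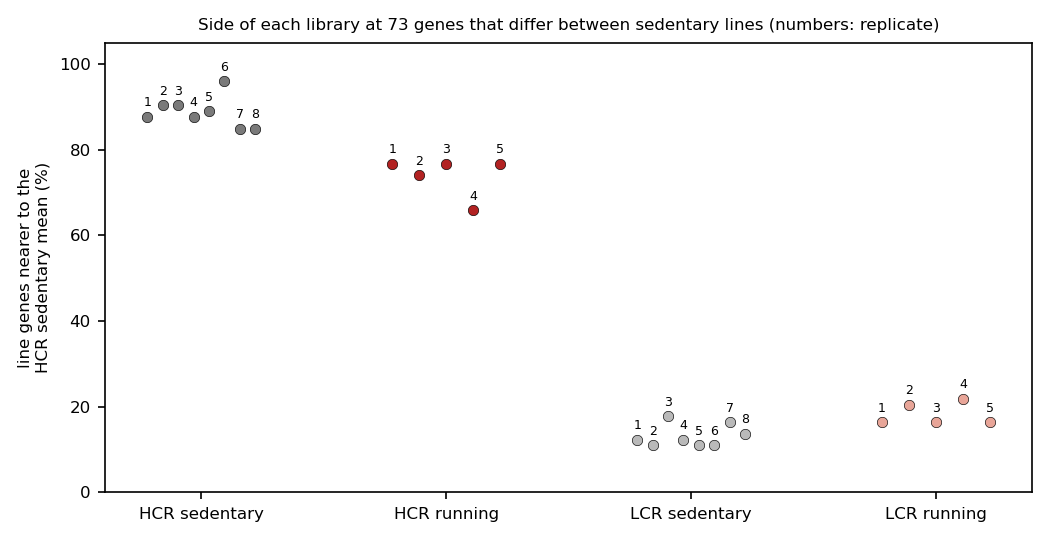
Share of the 73 line genes (y axis, %) at which each library lies nearer, in log2 CPM, to the sedentary HCR mean than to the sedentary LCR mean, with 1 point per library, replicate numbers beside the points and the 4 groups along the x axis. The HCR runners lie at 65.8% to 76.7% and the LCR runners at 16.4% to 21.9%, and HCR running 4 is the lowest HCR runner. The genes were chosen by the sedentary libraries, so sedentary and running shares are not comparable.

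Of 10064 genes tested in a fit over all 26 libraries, 10 rose in HCR runners at an adjusted p of at most 0.05 (0.0994%, edgeR quasi-likelihood test), and 0 fell (0.0%). At an unadjusted p under 0.05, 637 genes were higher (6.33%) and 625 lower (6.21%), and DESeq2 called 58 higher and 21 lower. DESeq2 called 8 of the 10 and gave no adjusted p for Kyat3 and LOC102550339. The 10 genes rose by 0.48 to 1.12 on the log2 scale. In 8 of them all 5 runners lay above all 8 sedentary rats, a pattern found in 38 of all genes (0.378%), while in 22 genes (0.219%) all runners lay below. Of the 10, 9 are described here, 7 of them without overlap between the groups. Without HCR running 4 the count was 22 genes, 16 higher and 6 lower, with 9 of the 10 kept. Without HCR running 5 it was 15, with 9 kept, and without both libraries, an alternative chosen after seeing the data, it was 19, with 9 kept.

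The stretch around the transcription start is shown for some of the genes that rose in the runners. Whether they share a regulator was not tested. Windows run from 250 bases before to 50 bases after the start (RefSeq, GRCr8, which is not the assembly to which the reads were aligned), and capitals mark a match to a cyclic AMP response element (TGACGTCA) or to an NRF1 site, on either strand.
Rcan2 (chr9:24672140-24672439, minus strand): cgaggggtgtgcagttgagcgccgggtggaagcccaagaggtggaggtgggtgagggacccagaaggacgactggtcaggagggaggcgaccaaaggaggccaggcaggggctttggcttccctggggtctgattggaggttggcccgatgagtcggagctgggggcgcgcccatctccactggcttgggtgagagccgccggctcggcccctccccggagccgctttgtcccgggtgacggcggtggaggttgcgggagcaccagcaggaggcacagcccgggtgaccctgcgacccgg
Lmod3, downstream start (chr4:131414889-131415188, minus strand): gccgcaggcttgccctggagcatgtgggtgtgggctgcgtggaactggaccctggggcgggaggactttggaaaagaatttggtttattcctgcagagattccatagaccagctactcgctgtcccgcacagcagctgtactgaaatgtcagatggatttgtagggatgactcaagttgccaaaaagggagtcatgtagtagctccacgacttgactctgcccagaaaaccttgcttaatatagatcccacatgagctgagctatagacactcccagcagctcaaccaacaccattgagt
Kyat3 (chr2:234362106-234362405, plus strand): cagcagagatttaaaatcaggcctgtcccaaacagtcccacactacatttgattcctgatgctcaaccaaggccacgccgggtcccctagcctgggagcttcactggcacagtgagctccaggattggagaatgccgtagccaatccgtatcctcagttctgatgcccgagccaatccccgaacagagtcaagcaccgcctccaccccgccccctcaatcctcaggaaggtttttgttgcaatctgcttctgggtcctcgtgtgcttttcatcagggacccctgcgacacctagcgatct
G3bp2, first start (chr14:16216434-16216733, plus strand): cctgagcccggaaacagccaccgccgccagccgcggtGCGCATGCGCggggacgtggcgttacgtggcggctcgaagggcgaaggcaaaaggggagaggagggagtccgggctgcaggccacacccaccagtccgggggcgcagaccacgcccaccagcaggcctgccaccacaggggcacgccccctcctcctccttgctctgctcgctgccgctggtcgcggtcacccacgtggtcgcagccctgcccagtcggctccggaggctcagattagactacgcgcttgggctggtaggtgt
G3bp2, second start (chr14:16271406-16271705, plus strand): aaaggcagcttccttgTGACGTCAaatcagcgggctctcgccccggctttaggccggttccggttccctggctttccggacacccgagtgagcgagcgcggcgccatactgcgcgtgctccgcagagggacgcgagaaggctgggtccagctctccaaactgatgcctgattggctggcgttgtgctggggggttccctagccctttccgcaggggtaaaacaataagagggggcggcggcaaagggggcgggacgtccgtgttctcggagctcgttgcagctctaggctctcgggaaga
The window of the second G3bp2 start holds a cyclic AMP response element, as do 1.83% of the 33469 windows in the table. That of the first G3bp2 start holds an NRF1 site, found in 4.25% of windows. Neither motif lies in the windows of Pde4d, which has 5 annotated starts and is not printed, of Rcan2, Lmod3, Kyat3, Fam89b or Eno3. Nor do those windows, or those of G3bp2, hold a MEF2 site (1.87% of all windows), an estrogen-related receptor site (TCAAGGTCA, 0.433%), a glucocorticoid response element (0.439%), an SRF CArG box (1.64%) or a TATA box (TATAAA, 14.2%). The calcineurin-responsive NFAT core (GGAAA, in 62.7% of windows) is in both annotated Lmod3 windows, all 3 G3bp2 windows, the Fam89b window and 4 of the 5 Pde4d windows, and not in those of Rcan2, Kyat3 or Eno3. The E-box bound by myogenic factors (CANNTG, 72.1%) is in the windows of Rcan2, Lmod3, Kyat3 and Eno3, in the first G3bp2 window and in 4 of the 5 Pde4d windows, and not in that of Fam89b. Since reads lie near transcript ends, the counts do not tell which start was used.

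The genes of smallest p described here included regulators of cyclic AMP and calcium signalling. Pde4d encodes a phosphodiesterase that breaks down cyclic AMP. It stood at 303, 269, 372, 264 and 301 CPM in HCR running 1 to 5, and in sedentary HCR the lowest, median and highest values were 141, 174 and 239 CPM. Every runner lay above every sedentary rat, a 1.68-fold rise (log2 fold change 0.75, SE 0.11, adjusted p = 0.00102, edgeR). With the 2 libraries of conflicting title moved to the line that the title names, Pde4d stood at 0.61 with an adjusted p of 0.0603 in edgeR.

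Of the 24 cyclic AMP genes tested of 29 listed, Pde4d included, 12 had a value above 0, with a median of 0.01, and 1, Pde4d, was called. At an unadjusted p under 0.05, 4 were higher and 1 lower. Its paralogue Pde4b stood at 0.45 (unadjusted p = 0.0178, edgeR), Pde4a at 0.29 (unadjusted p = 0.0803) and Pde10a at 0.50 (unadjusted p = 0.0106). Adcy9, an adenylyl cyclase that makes cyclic AMP, stood at 0.37 (unadjusted p = 0.0117). Prkar2b, a regulatory subunit of protein kinase A, had 7.27, 5.42, 5.67, 3.31 and 1.02 CPM in the runners against a sedentary range of 4.37 to 14.4 CPM, and did not pass (log2 fold change -1.10, SE 0.35, adjusted p = 0.175). No other member of this group passed the test over all genes.

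Rcan2 encodes a regulator that inhibits calcineurin. It stood at 246, 268, 279, 220.3 and 309 CPM in HCR running 1 to 5, against 128, 168 and 201 CPM (lowest, median and highest of the sedentary rats). The groups did not overlap, and the rise was 1.59-fold (0.67, SE 0.10, adjusted p = 0.00102, edgeR). Its paralogue Rcan1, a calcineurin target gene as well as an inhibitor, went the other way without passing, at 158, 295, 202, 279 and 188 CPM against a sedentary range of 261 to 456 CPM (-0.59, SE 0.23, adjusted p = 0.274).

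Of 26 calcium and calcineurin genes tested, 15 lay above 0 (median 0.03) and 1, Rcan2, was called by edgeR, while DESeq2 called Rcan2 and Stac3. The calcineurin subunits Ppp3ca (0.03), Ppp3cb (-0.08) and Ppp3r1 (0.12) and the transcription factor Nfatc1 (0.22) each had an unadjusted p above 0.05. Stac3, which couples the voltage sensor to the calcium release channel, had 407, 429, 392, 398 and 488 CPM in the runners and at most 370.2 CPM in the sedentary rats. The groups did not overlap, and Stac3 did not pass in edgeR (0.36, SE 0.10, adjusted p = 0.118) but did in DESeq2 (adjusted p = 0.0413).

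Lmod3 encodes leiomodin 3, which starts actin filaments and sets thin filament length in skeletal muscle. It stood at 732, 688, 1026, 863 and 750.1 CPM in HCR running 1 to 5 and at 436, 559 and 659.7 CPM at the lowest, median and highest in sedentary HCR. The 5 runners lay above all sedentary HCR rats, 1.47-fold by the fit (0.56, SE 0.10, adjusted p = 0.00303, edgeR). In the LCR line the same gene was at 663 to 812 CPM in sedentary rats and 702 to 858 CPM in runners, ranges that the HCR runners overlap.

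Among 26 thin filament and Z-disc genes, 17 lay above 0 (median 0.07) and Lmod3 was the 1 called by edgeR, while DESeq2 called Lmod3 and Actc1. Actc1, the cardiac actin that is also made in developing and regenerating skeletal muscle, had 445, 149, 284, 254 and 436 CPM in the runners against 43.2, 91.2 and 167 CPM in the sedentary rats. Runner 2 overlapped the highest sedentary rat, and Actc1 did not pass in edgeR (1.72, SE 0.41, adjusted p = 0.0857) but did in DESeq2 (adjusted p = 0.00693). Acta1, the main actin of adult skeletal muscle, stood at 0.17 (unadjusted p = 0.146), Neb at 0.11 (unadjusted p = 0.289) and Ttn at 0.06 (unadjusted p = 0.659).

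Metabolic enzymes made up the next group. Kyat3 encodes a kynurenine aminotransferase, which turns the tryptophan product kynurenine into kynurenic acid. It stood at 22.8, 23.9, 31.2, 18.2 and 23.5 CPM in HCR running 1 to 5, against 8.12, 12.7 and 14.4 CPM in the sedentary rats. No runner reached down to the sedentary range, and the rise was 1.98-fold (0.98, SE 0.18, adjusted p = 0.00966, edgeR). Of the 7 kynurenine and aspartate aminotransferase genes tested, 6 lay above 0 (median 0.24), and DESeq2 called Gpt (adjusted p = 0.0429). The alanine aminotransferase Gpt had 42.0, 38.5, 56.0, 52.2 and 63.4 CPM against a sedentary range of 25.4 to 45.4 CPM (0.55, SE 0.15, adjusted p = 0.118 in edgeR), while the paralogue Kyat1 stood at 0.19 (unadjusted p = 0.348).

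Eno3 encodes the muscle form of the glycolytic enzyme enolase. Its values were 604, 628, 769, 561 and 657 CPM in HCR running 1 to 5 and 376, 401 and 578 CPM in the sedentary rats, so that runner 4 lay below the highest sedentary rat, HCR sedentary 4. The rise was 1.48-fold (0.56, SE 0.12, adjusted p = 0.0318, edgeR), and the call was kept in 18 of 26 refits that each left out 1 library. Without HCR running 5, Eno3 had an adjusted p of 0.0669 in edgeR.

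Of 27 glycolysis and glycogen genes tested, 21 lay above 0 (median 0.15), 9 at an unadjusted p under 0.05, and 1, Eno3, was called by edgeR, while DESeq2 called Eno3 and Slc2a4. The insulin-responsive glucose transporter Slc2a4 had 839.8, 868, 968, 920.1 and 965 CPM in the runners and 568, 686 and 824 CPM in the sedentary rats, without overlap, and did not pass in edgeR (0.39, SE 0.10, adjusted p = 0.0857) but did in DESeq2 (adjusted p = 0.0167). The glycogen phosphorylase Pygm stood at 0.37 (unadjusted p = 0.015) and the pyruvate kinase Pkm at 0.33 (unadjusted p = 0.00943). Gapdh stood at -0.01 (unadjusted p = 0.949).

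G3bp2 encodes an RNA-binding protein of stress granules. It stood at 194, 206, 174, 174 and 184 CPM in HCR running 1 to 5 against 112, 136 and 153 CPM in the sedentary rats, again without overlap, and rose 1.42-fold (0.51, SE 0.10, adjusted p = 0.0101, edgeR). Fam89b, whose product regulates the cytoskeleton through LIM kinase, stood at 65.4, 70.5, 69.5, 70.4 and 55.2 CPM against 42.9, 47.9 and 54.1 CPM. Runner 5 lay just above the highest sedentary rat, and the rise was 1.39-fold (0.48, SE 0.10, adjusted p = 0.0287, edgeR), with an adjusted p of 0.0573 without HCR running 4. Fam89b was called in 20 of the 26 refits.

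Of the called genes, LOC102546992 and LOC102550339 are long noncoding RNAs in RefSeq. LOC102546992 overlaps another noncoding gene, LOC100912143, in that annotation, so reads may have been split between the pair. It stood at 69.0, 84.1, 129, 55.5 and 88.9 CPM in the runners and at 28.9, 41.8 and 51.1 CPM in the sedentary rats, a 2.06-fold rise (1.04, SE 0.18, adjusted p = 0.00652, edgeR). LOC102550339 had 23.9, 44.5, 50.4, 19.9 and 26.6 CPM against 10.9, 15.3 and 23.0 CPM. Runners 2 and 3 lay far above the rest and runner 4 inside the sedentary range, with a fitted rise of 1.12 (SE 0.22, adjusted p = 0.0206, edgeR). With the line of the title LOC102546992 had an adjusted p of 0.166 and LOC102550339 one of 0.588 in edgeR. In LCR rats LOC102550339 stayed between 0.0 and 1.63 CPM in all 13 libraries.

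**Figure D2:**
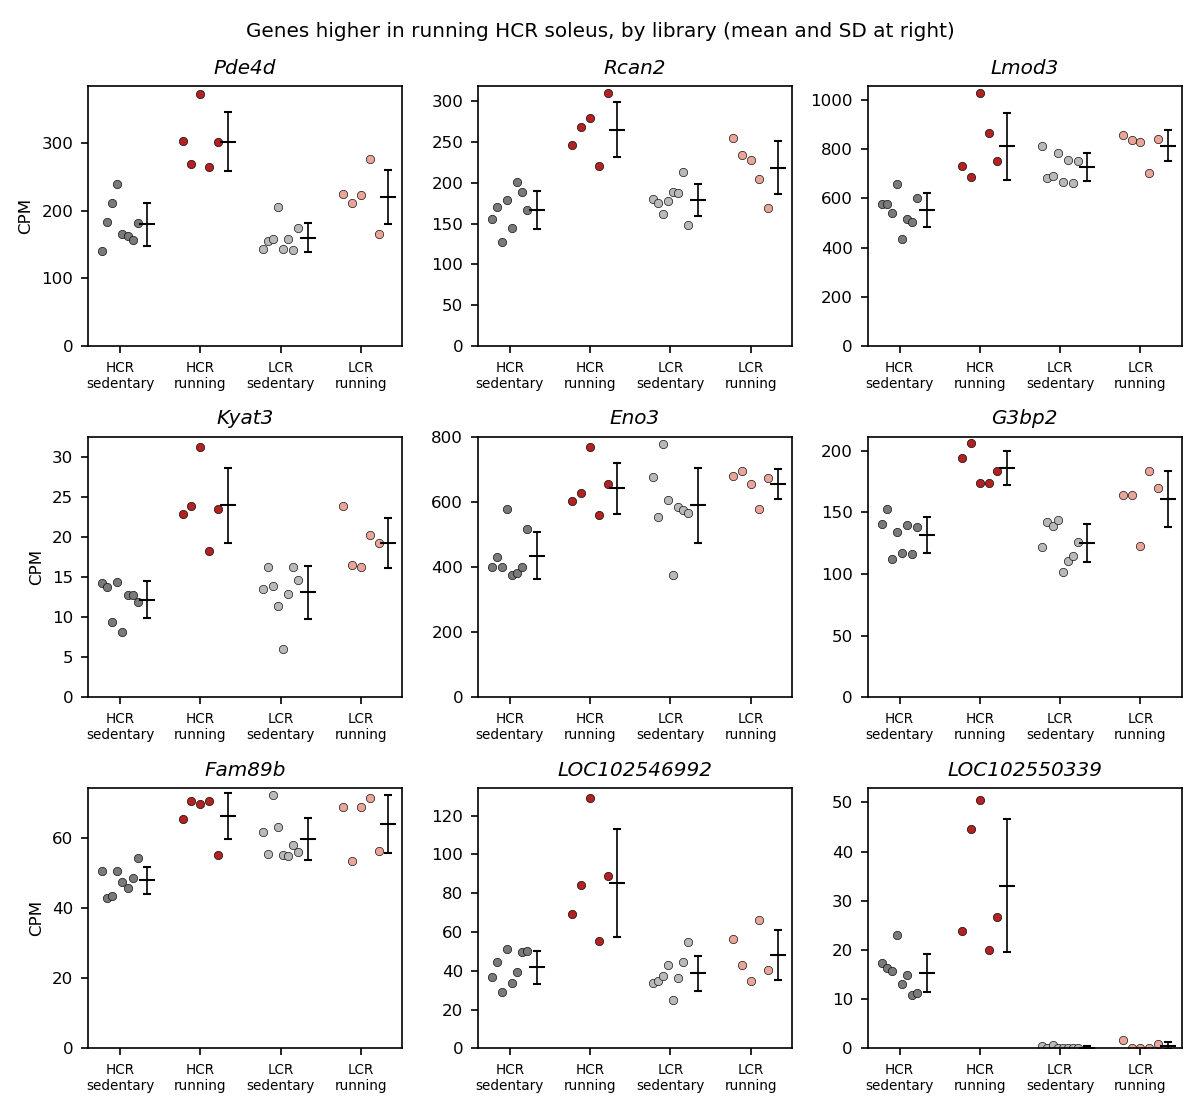
CPM (y axis, linear from 0) of the 9 described genes in each library of the 4 groups (x axis), with the mean and SD of each group at its right. In HCR the runners lie above all sedentary rats in 7 panels and overlap 1 sedentary rat or more in Eno3 and LOC102550339, and LOC102550339 is near 0 in every LCR library.

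All 10 called genes also had a value above 0 in the LCR comparison, where 50.3% of all genes did. Of the 10, 5 had an unadjusted p under 0.05 there, against 6.08% of all genes in either direction. Cohort and cage cannot be told apart from running in this comparison either. For LOC102550339 the LCR value (1.38, SE 1.02) rests on a few reads, with at most 1.63 CPM in any LCR library. In LCR 0 genes passed (0.0%, edgeR, 612 at an unadjusted p under 0.05, 2 by DESeq2 and 1 by voom). Pde4d stood at 0.46 in LCR (unadjusted p = 0.000318), G3bp2 at 0.36 (unadjusted p = 0.000636), Kyat3 at 0.57 (unadjusted p = 0.00415) and Rcan2 at 0.29 (unadjusted p = 0.00825). Lmod3 stood at 0.16, Eno3 at 0.16 and Fam89b at 0.11, each with an unadjusted p above 0.05.

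The difference between the responses of the lines was tested directly. In edgeR 0 genes passed (0.0%), the smallest adjusted p being 0.835, and 592 genes (5.88%) had an unadjusted p under 0.05. DESeq2 and voom also called 0. The 10 genes were chosen by their HCR value, so that a larger value in HCR than in LCR is favoured by the choice and is given as a description. For Lmod3 the difference was 0.39 (SE 0.14, adjusted p = 0.835) and for Pde4d 0.28 (SE 0.16, adjusted p = 0.852). These data therefore do not show at the adjusted threshold that any of the 10 responses differs between the lines, and they do not show that the responses are alike.

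Genes next in order of p did not pass in edgeR, and many of them passed in DESeq2. Its adjusted p was 0.00303 for H3f3b, 0.00687 for Nfkbia, 0.00252 for Dusp1, 0.00693 for Grb14 and for Map3k7cl, 0.00832 for Fbxo32, 0.0167 for Sav1, and 0.0177 for Klhl13 and for Slc4a7. DESeq2 gave no adjusted p for Ptn and Sbk2. H3f3b, a variant histone gene, had 216, 193, 172, 181 and 183 CPM in the runners and 225, 245 and 285 CPM in the sedentary rats, without overlap (-0.39, SE 0.08, adjusted p = 0.0515, edgeR). Nfkbia, the inhibitor of NF-kappaB, was high in runners 1, 2 and 3 (359, 381 and 410 CPM), while runners 4 and 5 (230.2 and 229.9 CPM) lay inside the sedentary range of 209.8 to 245 CPM (0.49, SE 0.11, adjusted p = 0.0515).

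Ptn, which encodes the growth factor pleiotrophin, had 1.04, 3.80, 2.13, 0.828 and 3.07 CPM against 4.24, 6.32 and 8.58 CPM, all runners below all sedentary rats (-1.53, SE 0.34, adjusted p = 0.0573, edgeR). At these levels a library holds only a few reads of Ptn. Dusp1, a phosphatase of MAP kinases that is induced within minutes by stimuli, had 21.8, 28.8, 32.6, 29.0 and 49.1 CPM against 56.7, 62.8 and 81.8 CPM, also without overlap (-1.05, SE 0.23, adjusted p = 0.0621). Grb14, an adaptor that dampens insulin receptor signalling, had 99.7, 86.8, 141, 92.8 and 84.8 CPM against 37.6, 59.3 and 85.0 CPM (0.74, SE 0.16, adjusted p = 0.0621). Dusp1 also passed in edgeR with upper-quartile factors (adjusted p = 0.046), with the line of the title (adjusted p = 0.0366) and with the HCR groups alone (adjusted p = 0.00313). With upper-quartile factors H3f3b (adjusted p = 0.0282), Ptn and Sav1 (adjusted p = 0.0455 each) passed too. Other edgeR settings also moved genes over the threshold, among them Nfkbia without the 2 libraries of conflicting title (adjusted p = 0.00718) and Slc4a7 with the line of the title (adjusted p = 0.044). H3f3b and Nfkbia were each called in 7 of 26 refits that left out 1 library.

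Fbxo32, a ubiquitin ligase raised in muscle wasting, had 327, 329.8, 345, 234 and 323 CPM against 145, 209 and 273 CPM, with runner 4 inside the sedentary range (0.59, SE 0.13, adjusted p = 0.0629, edgeR). The kinase gene Sbk2 stood at 1.38 (SE 0.32, adjusted p = 0.0693), Klhl13, a ubiquitin ligase adaptor, at 0.56 (SE 0.13, adjusted p = 0.0739) and the bicarbonate transporter Slc4a7 at 0.47 (SE 0.11, adjusted p = 0.0837). Sav1, a scaffold of the Hippo pathway, stood at -0.73 (SE 0.16, adjusted p = 0.0608) and Map3k7cl at -0.94 (SE 0.22, adjusted p = 0.072). In Map3k7cl all runners lay below all sedentary rats and in Klhl13 all lay above.

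Gene lists were described by the values of their tested members, beside all genes tested, of which 49.1% lay above 0. The median was higher for more abundant genes, from -0.08 for genes under 4 log2 CPM (3505 genes) through -0.01 and 0.04 to 0.06 for those of 8 log2 CPM or more (579 genes). The share above 0 went from 40.0% through 49.0% and 59.2% to 69.3% over the same classes. Medians and counts above 0 of lists of abundant genes, such as those of respiration, should be read against the upper classes. Those of lists of scarce genes, such as MHC class II, should be read against the lower classes. Fewer cells of a type and less RNA per cell cannot be told apart in bulk tissue.

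Energy genes lay mostly above 0. Of 38 complex I subunit genes 33 lay above 0, with a median of 0.21 and 21 at an unadjusted p under 0.05, and of 41 genes of complexes II to V 38 did (median 0.20, 16 at an unadjusted p under 0.05). None was called (edgeR; Uqcrh and Atp5mc1 were by DESeq2). Uqcrh, a subunit of complex III, had 356, 321, 296, 344 and 319.9 CPM in the runners against 217, 262 and 327 CPM, with runners 2, 3 and 5 inside the sedentary range (0.33, SE 0.09, adjusted p = 0.0995, edgeR). Ndufb10 of complex I had 129, 108, 111, 104 and 129.8 CPM against 75.7, 90.2 and 107 CPM (0.38, SE 0.12, adjusted p = 0.162). The same lists had medians of 0.06 and 0.11 in LCR.

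The mean log2 level of the complex I genes, relative to the sedentary mean, was 0.19, 0.24, 0.24, 0.10 and 0.23 in HCR running 1 to 5. Sedentary rats ran from -0.26 in HCR sedentary 3 to 0.20 in HCR sedentary 4, so that only 3 runners were above the highest sedentary library. The 13 mRNAs encoded in the mitochondrial genome itself, which code for other subunits of the same complexes, had 6 values above 0 and a median of -0.04. Cs, the citrate synthase gene, had 194, 205, 204, 202 and 206 CPM against 183, 199.6 and 224 CPM (0.01, SE 0.08, adjusted p = 0.977). Ppargc1a, the coactivator of mitochondrial gene expression, had 44.6, 40.1, 50.4, 54.7 and 46.0 CPM against 22, 37.7 and 54.0 CPM (0.27, SE 0.17, adjusted p = 0.528).

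Of 31 fatty acid genes, 30 lay above 0 (median 0.19, 4 at an unadjusted p under 0.05), against 9 of 31 in LCR (median -0.11), and 0 were called in HCR (edgeR and DESeq2). Their mean level split the runners, at 0.40, 0.48 and 0.39 in HCR running 2, 3 and 5 and at 0.06 and -0.20 in HCR running 1 and 4. Sedentary rats ran from -0.19 to 0.29, so that 3 runners lay above all of them and HCR running 4 lay just below them. Angptl4, a circulating inhibitor of lipoprotein lipase, had 18.2, 12.5, 29.8, 0.0 and 8.18 CPM against 0.66, 2.40 and 6.96 CPM (2.21, SE 0.58, adjusted p = 0.118, edgeR). Pdk4, which holds back glucose oxidation when fat is burned, had 88.2, 145, 163, 35.6 and 111 CPM against 28.6, 45.7 and 66.3 CPM (1.30, SE 0.45, adjusted p = 0.222). In both genes 4 runners lay above all sedentary rats and HCR running 4 did not. Without HCR running 4 the list median was 0.25.

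Targets of the glucocorticoid receptor had 18 of 20 values above 0 and a median of 0.28, with 8 at an unadjusted p under 0.05 and 0 called (edgeR; Nfkbia was by DESeq2). That list shares Angptl4 with the fatty acid list. Its mean level was 0.66, 0.41, 0.61, -0.11 and 0.23 in HCR running 1 to 5 and -0.24 to 0.21 in sedentary rats, with HCR running 4 alone inside the sedentary range. Klf9, a direct target, had 676, 702, 831, 732 and 697 CPM against 459, 559.5 and 753 CPM (0.34, SE 0.11, adjusted p = 0.177), and had the same value of 0.34 in LCR. In LCR the list's median was 0.19. The receptor's own gene, Nr3c1, stood at -0.11 (unadjusted p = 0.199).

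Fibre type genes overlapped widely between the groups. Of 18 fast-fibre genes 6 lay above 0 (median -0.20) and of 17 slow-fibre genes 12 did (median 0.15), and 0 of either list were called by edgeR, while DESeq2 called Tnni2, Tnnt3 and Myh2 lower. Myh2, the myosin of fast oxidative fibres, had 486, 247, 282, 538 and 613 CPM in the runners and 341, 1514 and 2921 CPM in the sedentary rats (-1.76, SE 0.53, adjusted p = 0.174, edgeR). All runners lay below the sedentary median, but the lowest sedentary rat lay below 3 of them. The fast troponin Tnni2 had 146, 100.4, 66.0, 135 and 126 CPM against 51.8, 349 and 509.8 CPM (-1.51, SE 0.42, adjusted p = 0.144).

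Myh1 stood at -1.06 (SE 0.70, adjusted p = 0.568), Myh4 at 0.37 (SE 0.66, adjusted p = 0.87) and Myh7 at 0.17 (SE 0.12, adjusted p = 0.597, edgeR). Myh4 had 302 CPM in HCR running 2 and 10.6 to 58.0 CPM in the other runners, and without that library its log2 fold change was -1.08. The slow troponin Tnnc1 had 2538, 2546, 3092, 3357 and 3453 CPM against 1780.4, 2119 and 3369.9 CPM (0.41, SE 0.13, adjusted p = 0.162), with 1 sedentary library, HCR sedentary 4, among the runners. The largest change of the slow-fibre list was a fall, in Ankrd2, and it did not pass. Ankrd2 had 312, 209, 141, 303 and 263 CPM against 274, 513 and 666 CPM (-1.02, SE 0.33, adjusted p = 0.192, edgeR).

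Immediate early genes, which respond within minutes to stimulation, had 3 of 24 values above 0 and a median of -0.40. At an unadjusted p under 0.05, 11 were lower and 0 higher, and 0 were called (edgeR; Dusp1 was by DESeq2). Their mean level was -0.74, -0.26, -0.48, -0.33 and -0.43 in HCR running 1 to 5, against -0.28 to 0.24 in the sedentary rats, so that 4 runners lay below all of them. Junb had 20.8, 15.7, 14.9, 24.8 and 26.6 CPM against 19.9, 39.8 and 58.1 CPM (-0.91, SE 0.31, adjusted p = 0.2), and Rhob 11.9, 8.14, 6.38, 11.6 and 8.18 CPM against 11.9, 15.9 and 30.0 CPM (-0.99, SE 0.25, adjusted p = 0.0857).

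Chaperones of the endoplasmic reticulum had 3 of 20 values above 0 and a median of -0.21, with 6 lower at an unadjusted p under 0.05 and 0 called (edgeR; Hspa5 was by DESeq2). Hspa5, the main chaperone there, had 318, 444, 309, 431 and 332 CPM against 415, 487 and 579.9 CPM, with runners 2 and 4 inside the sedentary range (-0.44, SE 0.11, adjusted p = 0.0857). Cytosolic heat shock genes had 8 of 20 values above 0 and a median of -0.05.

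Matrix and non-muscle genes lay mostly below 0. Of 30 collagen and matrix genes 2 lay above 0, Eln and P4ha1, with a median of -0.45 (0.00 in LCR) and 0 called (edgeR and DESeq2). At an unadjusted p under 0.05, 11 were lower and 1, Eln, was higher (0.70, SE 0.22, unadjusted p = 0.00401, edgeR). Tnc, a matrix protein of repair and of the tendon junction, had 4.15, 2.17, 2.84, 2.48 and 1.02 CPM against 5.04, 7.70 and 28.2 CPM, without overlap (-2.03, SE 0.65, adjusted p = 0.183, edgeR). Col1a1 had 60.2, 35.8, 24.8, 53.8 and 19.4 CPM against 30.2, 74.6 and 157 CPM (-1.02, SE 0.44, adjusted p = 0.334). The list's mean level was 0.03 in HCR running 1 and -0.29 to -0.91 in the other runners, and -0.45 to 0.54 in sedentary rats. Over the 26 refits the list's median ran from -0.69 without HCR running 1 to -0.34 without HCR sedentary 3.

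Markers of other cells were read beside these values. Summed levels in this paragraph cover all listed markers of a cell type, tested or not. The 15 fibro-adipogenic markers summed to 1131 to 1976 CPM in runners and 1258 to 1837 CPM in sedentary rats. The 11 of them that were tested had a median of -0.09. Their mean log2 level in HCR running 1 to 5 was 0.21, -0.34, -0.48, -0.15 and -0.50, in the same order of libraries as that of the matrix genes (0.03, -0.66, -0.74, -0.29 and -0.91), and in sedentary rats both were highest in HCR sedentary 3 (0.30 and 0.54) and lowest in HCR sedentary 4 (-0.23 and -0.45). The fibro-adipogenic markers include Col1a1, itself a matrix gene, so the 2 orders are not independent. Schwann cell markers had 0 of 7 values above 0 (median -0.32) and interferon response genes 2 of 18 (median -0.35). The 16 macrophage markers had a median of -0.06 (421 to 624 against 421 to 691 CPM), the 16 endothelial markers -0.17 (739 to 938 against 766 to 1072 CPM) and the 5 tendon markers -0.72 (118 to 259 against 162 to 485 CPM). MHC class II genes had 0 of 6 values above 0 and a median of -0.47 (73.8 to 131 against 99.0 to 192 CPM), against 0.24 in LCR. Adipocyte markers had 1 of 8 above 0 (median -0.50). The sums given here overlap between the groups, and the part of these markers in the results was not tested.

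**Figure D3:**
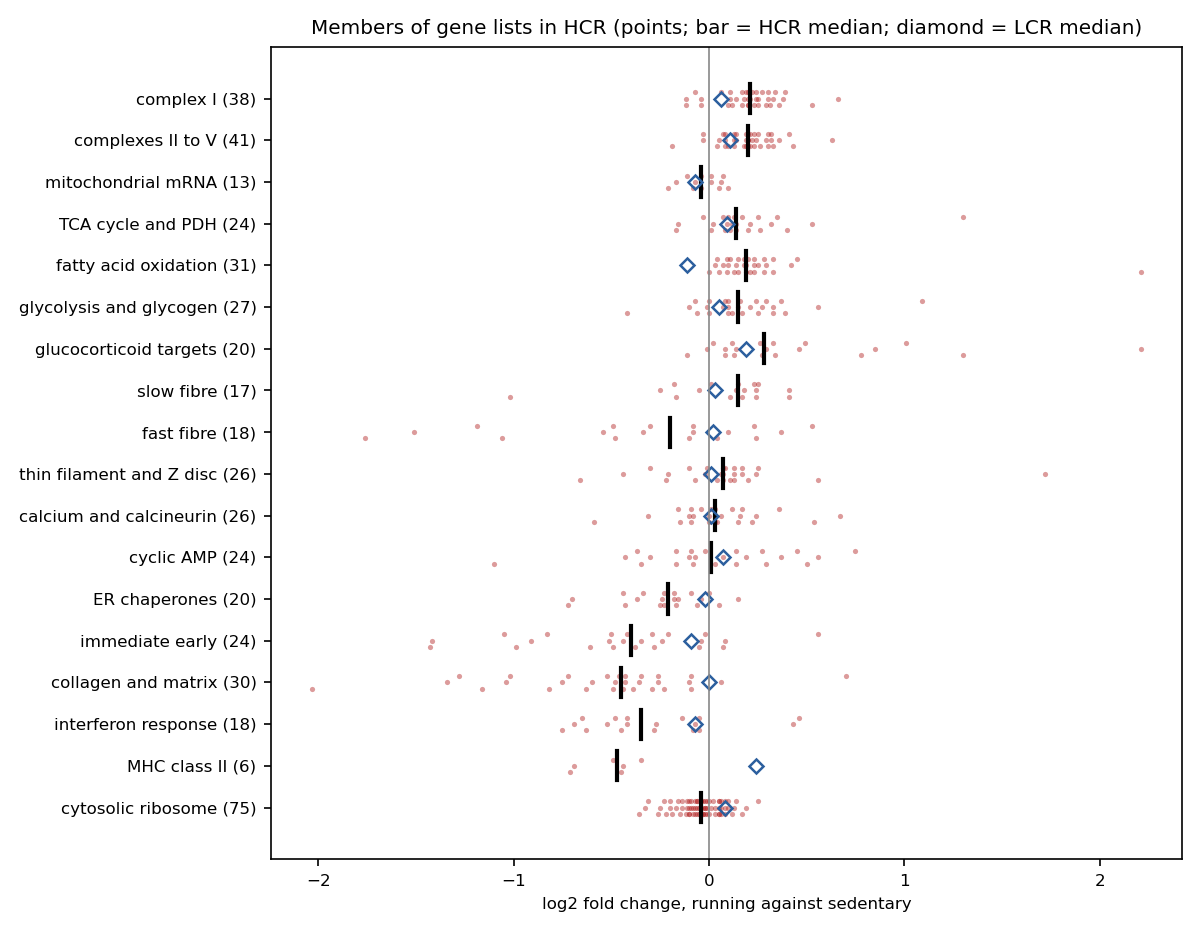
Log2 fold change of running against sedentary (x axis) for each tested member of 18 gene lists (rows, members tested in brackets). Points are members in HCR, the black bar is their HCR median and the open diamond the LCR median. Complex I and fatty acid genes lie mostly to the right (medians 0.21 and 0.19), and immediate early and matrix genes mostly to the left (-0.40 and -0.45).

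**Figure D4:**
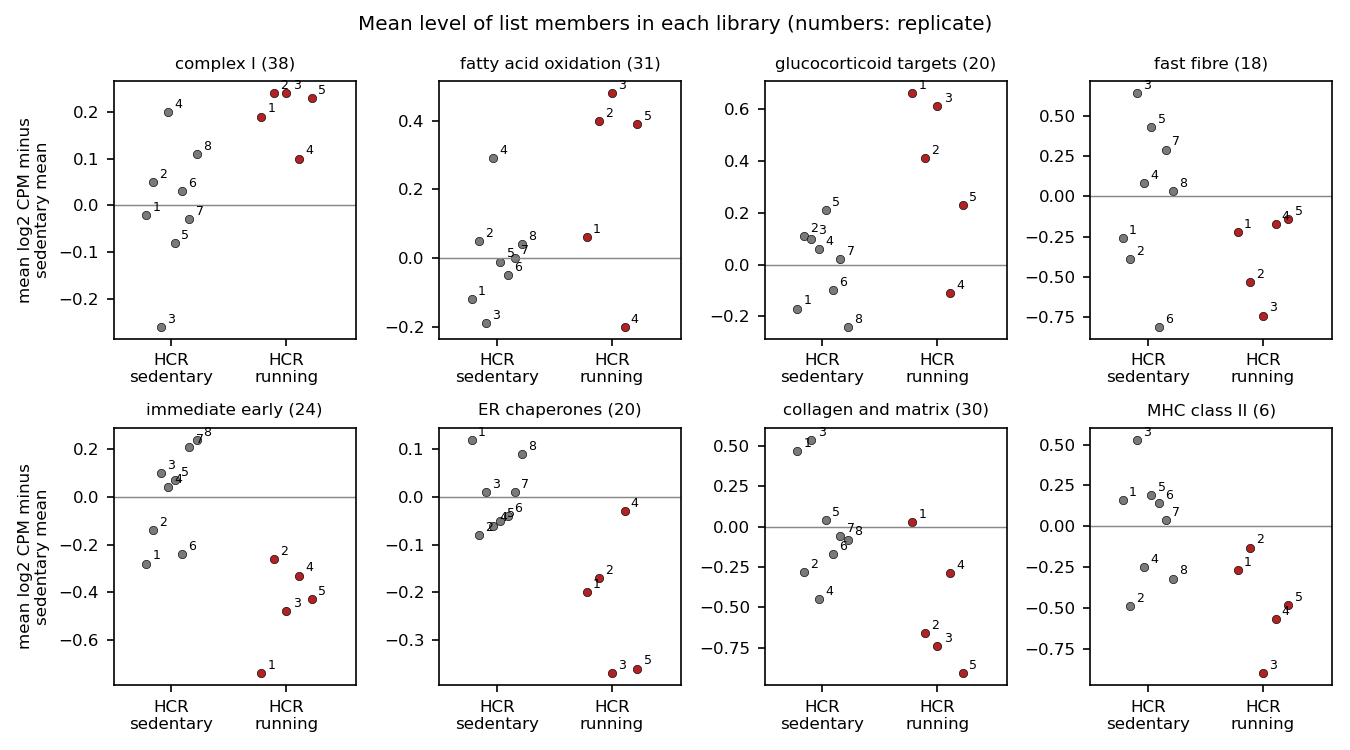
Mean log2 CPM of the tested members of 8 lists, minus the sedentary HCR mean (y axis), in each sedentary and running HCR library, with replicate numbers beside the points. The groups overlap in all 8 panels, and HCR running 4 is the lowest runner for fatty acid genes (-0.20) and glucocorticoid targets (-0.11).

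The number of genes called depended on single libraries. It ran from 4 without HCR running 3 to 38 without HCR sedentary 4, with a median of 11 over 26 refits. Other libraries that moved it by over 1.5 times were HCR running 1 (25 genes when omitted), HCR running 4 (22), LCR sedentary 5 (19) and HCR sedentary 5 (17). Pde4d and Rcan2 were called in all 26 refits, Lmod3, Kyat3, G3bp2 and LOC102546992 in 25 and LOC102550339 in 23. Lmod3, Kyat3 and LOC102546992 lost their call without HCR running 3, and G3bp2 without HCR running 2.

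**Figure D5:**
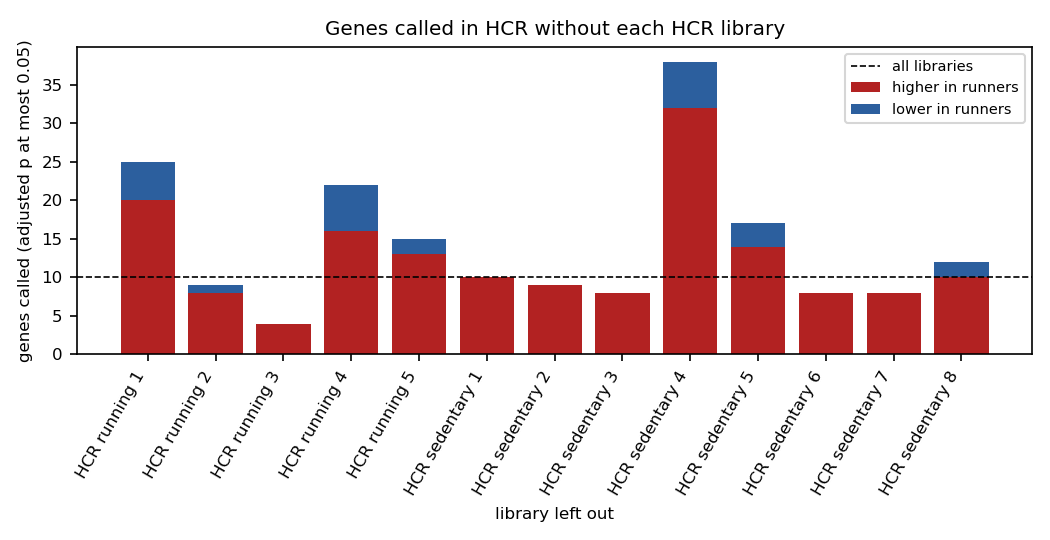
Number of genes called in HCR at an adjusted p of at most 0.05 (y axis) when each of the 13 HCR libraries is left out in turn (x axis), higher in runners in red and lower in blue. The dashed line marks the 10 genes called with all libraries, the lowest bar is 4 (without HCR running 3) and the highest 38 (without HCR sedentary 4).

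The labels describe the runners as a separate cohort housed in pairs, so cohort and cage cannot be told apart from running. The labels do not say which runners shared a cage, and p-values treat each library as 1 animal.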

How the data were processed

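The authors deposited 1 table of raw read counts for 34034 genes in 26 libraries, 1 per sample. Per the labels' protocols, libraries were made from 100 ng of RNA with a 3'-end kit primed at the poly(A) tail. STAR, featureCounts, cutadapt, UMI-tools, FastQC and MultiQC are listed in the submitters' processing notes together with the build mRatBN7.2/rn7, without versions or settings. The sources used here do not say whether counts were collapsed by molecular identifier or which strand setting was used, so overlapping genes may share reads.

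Groups follow each sample's description. For 2 running libraries the title names the other line, and the description and genotype were kept. Genes were filtered with filterByExpr by group, leaving 10064. TMM factors and the quasi-likelihood F test of edgeR 4.0.16 (robust, R 4.3.3) were applied to all 4 groups in 1 fit with 22 residual degrees of freedom, with Benjamini-Hochberg adjustment over all genes at 0.05. Log2 fold changes are running minus sedentary, and SE is the fold change divided by the root of F. CPM is the count over the filtered library size times its TMM factor, and log2 levels use a prior count of 2. Library measures were compared by exact 2-sided permutation over 1287 regroupings.

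Genes named were drawn from those called, the 20 genes with a symbol of smallest p, the 3 members of smallest p in each of 38 lists, and a fixed set of fibre type, metabolic and signalling genes. Not every gene of these sets is named in the text. Other list members were named to fill out a pathway after their values were seen. Members and lists were chosen with earlier results of these data known. Of 796 listed symbols 795 were in the table. Of the called genes, 1 is not reported here. Alternatives were DESeq2 1.42.0, voom in limma 3.58.1, other scalings, filters, blocks and refits without single libraries. On simulated counts for this comparison with 200 of 9869 genes changed, 52% of 1.5-fold and 87% of 2-fold changes were recovered, with 9 false calls. The changed genes were drawn only from those above a minimum mean CPM, so these shares do not cover genes of a few CPM. Libraries held 1.1 to 2.52 M counts.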

Additional observations from a re-analysis of the deposited data

Results flagged for a closer look

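In 11 of 268 group-by-gene checks 1 library stood far from the others of its group; chance flags about 1 in 20 groups. Among HCR runners, Sav1 was low in library 3 (10.6 CPM, others 17.4 to 19.9) and Cryab, a small heat shock protein, was low there too (1082 CPM, others 1606 to 1724). In library 4, Fbxo32 (234 CPM, others 323 to 345) and Col18a1, a basement membrane collagen (1.66 CPM, others 6.13 to 7.79), were low. Klhl13 was high in library 1 (78.9 CPM, others 53.9 to 57.5) and Fmod, a collagen-binding proteoglycan, low in library 5 (2.04 CPM, others 6.63 to 9.22). Among sedentary HCR rats, library 4 was high for Tnnc1 (3369.9 CPM, others 1780.4 to 2395) and for the mitochondrial ND4L (395 CPM, others 257 to 289). Library 3 was low for Got2, the mitochondrial aspartate aminotransferase (352 CPM, others 421 to 493), and high for the interferon regulator Irf1 (37.2 CPM, others 14.4 to 22). The cartilage and tendon matrix gene Comp was high in library 1 (35.7 CPM, others 1.25 to 6.88).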

How the results depend on the processing

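The genes called in HCR numbered 10 in edgeR, 79 by DESeq2 (58 higher, 21 lower, 8 of the 10 kept and no adjusted p for Kyat3 and LOC102550339) and 10 to 14 under the other scalings, filters, voom and choices of groups or title that were run, except 19 without HCR running 4 and 5 together. The following settings were chosen after seeing the data for filtering and grouping: a filter of CPM 20 in 5 libraries (14 genes), since the planned filter of CPM 5 in 5 libraries kept 10452 genes, more than the main filter, and the HCR groups alone without the library of conflicting title (13 genes). A replicate block gave 12 genes over all numbers (7 of the 10 kept) and 3 over numbers 1 to 5. Correlations of same-numbered libraries were -0.22 to 0.06, so no pairing by number was seen in expression. Leaving out 1 library gave 4 to 38 genes in HCR, 0 to 2 in LCR and 0 for the difference. LCR calls, 0 in edgeR, were 2 by DESeq2, 1 by voom, 2 without a filter, 1 without the libraries of conflicting title and 2 without HCR running 4 and 5, where the difference gave 1 gene. The difference in genes with a count ran from -1036 (exact permutation p = 0.0384, without HCR running 2) to -536 without 1 library, and the difference of medians was -950 (exact permutation p = 0.0350), while with libraries thinned to the smallest total the difference was -312 (exact permutation p = 0.207). Directions reversed as follows on the log2 scale, with the range over refits without 1 library in brackets. Cs was -0.02 with upper-quartile factors, -0.01 with the filter of CPM 20 and -0.0025 or -0.01 without HCR sedentary 2 or 3 (-0.01 to 0.04). Hba-a1 was -0.13 by voom, -0.0039 with the replicate block and -0.36 without HCR running 2 (-0.36 to 0.39). Cpa3 was -0.03 with upper-quartile factors, -0.11 with the replicate block, -0.06 without HCR running 4 and 5, and below 0 in 8 refits, down to -0.10 without HCR running 2 (-0.10 to 0.11). Ptprc was 0.08 without HCR running 4 and 5 and 0.02 without HCR sedentary 3 (-0.31 to 0.02), and Mcpt1l1 was 0.12 without both and 0.04 without HCR running 4 (-0.55 to 0.04). Myh8 was -0.03 without HCR running 1 (-0.03 to 1.32). Myh4 was -1.08 (-1.08 to 0.66) and Cd4 0.06 (-0.25 to 0.06) without HCR running 2. The causes were not tested. At 1.1 to 2.52 M counts, genes of a few CPM rest on few reads.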

Other observations

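Genes that mark denervated or regenerating fibres were present in both HCR groups. Myh3, the embryonic myosin, had a median of 698 CPM in runners (269.6 to 1525) and 891 CPM in sedentary rats (396 to 1497). Runx1, a transcription factor induced by denervation, had medians of 417 and 443 CPM, and Chrnd, an acetylcholine receptor subunit, 224 and 216 CPM. Myh8, the perinatal myosin, stood at 49.3 CPM in HCR running 1 and at 2.71 to 13.5 CPM in the other runners, against 2.16 to 16.2 CPM in sedentary rats. Of the 14 denervation and junction genes tested, 8 lay above 0 (median 0.07) and 0 were called in edgeR, with 1 at an unadjusted p under 0.05, while DESeq2 called Colq, which anchors acetylcholinesterase at the junction (log2 fold change 0.44 in edgeR, adjusted p = 0.0899).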
